A study of Saccharomyces cerevisiae with 21 samples.

Results

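The 56 genes described here encode the proteins of the small (40S) ribosomal subunit of budding yeast, RPS0A to RPS31. They were taken by their open reading frame names from a table of 7126 features, 6007 of them protein-coding genes of the reference. They make 32 proteins: 24 proteins have a pair of gene copies, A and B, and 8 proteins, Rps31 among them, have 1 gene. Of the 56 genes, 22 encode proteins of the head of the subunit and 34 encode proteins of its body and platform. Nascent RNA was measured in 21 libraries, 3 of each of 7 groups, as RNA that came down with RNA polymerase II through the Rpb3 subunit tagged with 3xFLAG. All strains derive from BY4741, and the labels give each of them as MATa with his3D1, leu2D0, met15D0, ura3D0 and the tagged RPB3. WT cells were untreated and carried no degron. The RAP1-AID, RAP1-AID/STH1-AID and STH1-AID strains carried an auxin-inducible degron, here IAA7 with 3V5 epitopes, on the named protein or proteins, and the plant F-box protein osTIR under the GPD1 promoter, which lets auxin direct the tagged protein to degradation. Degron cells received DMSO (the controls) or 3-indoleacetic acid (IAA) at 500 µM, for 2 h by the study's methods, in rich medium. No WT cells received IAA, so within a strain an effect of IAA itself cannot be told apart from that of the depletion. The study asked how Rap1 and Sth1 act on transcription at promoters, and for these genes the comparisons show what happened to their nascent transcripts when one or both were depleted.

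Ribosomal protein genes are among the most heavily transcribed genes of a growing yeast cell. Rap1 is a general regulatory factor that binds upstream of most of them and helps to recruit Fhl1 and Ifh1, and a smaller number of ribosomal protein genes is bound by Abf1 in place of Rap1. Sth1 is the ATPase of RSC, the remodelling complex that moves and evicts nucleosomes at promoters. The paired copies stem from an ancient duplication of the yeast genome and encode identical or nearly identical proteins, so the cell can draw the same protein from promoters that differ.

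The 500 bases before each start codon were searched on both strands for a Rap1 motif, ACCCNNACA, and 18 of the 56 genes held it. This was 32.1% of them, against 44.4% of the 81 large subunit genes and 5.48% of all protein-coding genes. The Abf1 motif, TCA and ACG with any 6 bases between them, was upstream of 12 of the 56 genes (21.4%, against 22.7% of all), and the Reb1 motif TTACCCG was upstream of only RPS12 and RPS20 (3.57%, against 10.1%). A run of AAAAAAA stood upstream of 37 genes (66.1%, against 64.5%). The motifs do not overlap one another in the sites printed here. A match is only a run of letters and was not shown to be bound. Nor does the lack of a match show that the factor is absent, since other forms of its site were not searched. The sites below are those of genes to which the results return, with the match in capitals, in the reference build R64 and on the strand of the gene. On RPS10A, RPS10B, RPS28A and RPS28B the motif lies on the opposite strand and is printed as its reverse complement.
RPS21B, chrX:157599-157623, 342 bases before the start codon: gtgtttacACCCGTACActttatac
RPS1A, chrXII:1019137-1019161, 245 bases before: acgttgaaACCCAAACAttaatata
RPS10A, chrXV:866750-866774, 340 bases before: tctgggttTGTATGGGTgttacacc
RPS10B, chrXIII:732216-732240, 190 bases before: atcgcgcaTGTGTGGGTgtatatgc
RPS28A, Abf1 motif, chrXV:649152-649179, 164 bases before: gacgcggcCGTCTAGAGTGAccacgcac
RPS28B, Abf1 motif, chrXII:672942-672969, 181 bases before: acttatttCGTACAAAATGAtcacgcaa

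Library totals ran from 18289832 to 23182315 expected counts, and a member gene had between 12 (RPS29A) and 19719 counts in a library. No spike-in entered the nascent libraries, so every level is relative to the other RNAs of its library, and fewer cells, or less RNA per cell, cannot be told apart from it. The transcripts of the degron-tagged genes do not test the depletion, which acts on the protein: RAP1 had 538 to 636 CPM in the RAP1-AID control and 615 to 795 CPM after IAA, where CPM is the count brought to a common library size with the TMM factor. MET17, the gene deleted in met15D0, was at or under 0.115 CPM in the 6 STH1-AID libraries but at 29.0 to 63.8 CPM in the other 15, which goes against the labelled marker in those strains; its part in the results was not tested. RAP1-AID control replicate 2 stood apart for the member genes, which took 1.43% of its counts, the highest share of any library (0.395% to 1.25% in the other 20), and values without it are given where they matter.

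In WT cells all 56 genes lay above the median level of protein-coding genes, but they were not transcribed alike. Levels between genes are compared in TPM, the unit of the deposited table that is scaled to gene length and library total. TPM is uncertain for the shortest genes. RPS28A and RPS28B, at 204 coding bases each, are near the length to which the study's methods say the RNA was fragmented. How far this affects their place in the order was not tested. The median of the 56 genes was 519 TPM, against 55.4 TPM for all protein-coding genes, and the highest gene had 32.8 times the level of the lowest. RPS28A (YOR167C, chrXV:648804-649007, without an intron), whose protein sits near the mRNA exit, was highest at 1864 ± 34.9 TPM (SD, n = 3). It was followed by RPS20, a head protein gene, at 1665 ± 56.1 TPM, and by RPS31, whose product is made as a fusion with ubiquitin, at 1612 ± 226 TPM. RPS9A (YPL081W, chrXVI:404950-406044, with an intron), 1 of the 2 genes for an early-assembling protein of the body, was lowest at 56.8 ± 2.78 TPM. Just above it were RPS22B at 98.8 ± 8.77 TPM and RPS14B at 117 ± 7.58 TPM. Neighbours in this order mostly did not separate: at only 4 of its 55 steps did every library of the higher gene lie above every library of the next. The 36 genes with an intron in the coding sequence had a median of 429 TPM, and the 20 without one had 889 TPM. Short genes lie in both groups, those of RPS28 and RPS29 without an intron and those of RPS30 with one. The difference was not tested and need not be one of transcription.

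Among the other single-copy genes, RPS15 (export of the pre-40S particle) had 1098 ± 39.3 TPM. RPS3 (mRNA entry channel) had 937 ± 78.3 TPM, RPS2 (translational accuracy) 840 ± 75.1 TPM, RPS12 (beak of the head) 713 ± 78.3 TPM and RPS13 (a bridge to the large subunit) 596 ± 76.4 TPM. When both copies of a pair were added, the 32 proteins ranged from 325 ± 20.8 TPM for Rps25 to 3368 ± 231 TPM for Rps28, with a median of 980 TPM. Although 1 ribosome holds 1 copy of each protein, the sums of nascent RNA thus spanned 10.3-fold in WT cells. The top of this range rests on the short Rps28 genes, whose TPM is uncertain.

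Within pairs, A was the higher copy in 11 and B in 13, and in 22 of the 24 pairs the same copy was higher in every WT library. The median distance between copies was 0.55 on the log2 scale of TPM. Copies differed over 2-fold in 7 pairs and over 4-fold in 3 pairs. RPS9B had 662 ± 96.2 TPM against 56.8 for RPS9A, 11.6 times as much. RPS22A, a body protein gene, had 1006 ± 175 TPM and exceeded RPS22B 10.1-fold. Of these copies RPS22B has an intron and RPS22A does not, and the part of this in their ratio was not tested. RPS14A, for a platform protein, had 782 ± 100 TPM and exceeded RPS14B 6.66-fold. They were followed by RPS21, whose protein binds next to Rps0, with B 2.65-fold above A, and by RPS26, at the mRNA exit channel, with A 2.33-fold above B. Among the copies nearest each other were those of RPS30 and RPS6, at log2 ratios of A over B of -0.16 and -0.17. The copies of RPS6 are hard to separate by sequence, since 71.7% of the 51-base windows of the A coding sequence recur in B. RSEM shared reads between copies there, and 22 member genes had fractional counts in 18 or more libraries. No 51-base window was shared in RPS21, RPS22, RPS26, RPS27, RPS28 or RPS29, and 4.78% were in RPS9. RPS22B overlaps the noncoding RNA gene YNCL0046W on its own strand, so its values are uncertain.

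**Figure D1:**
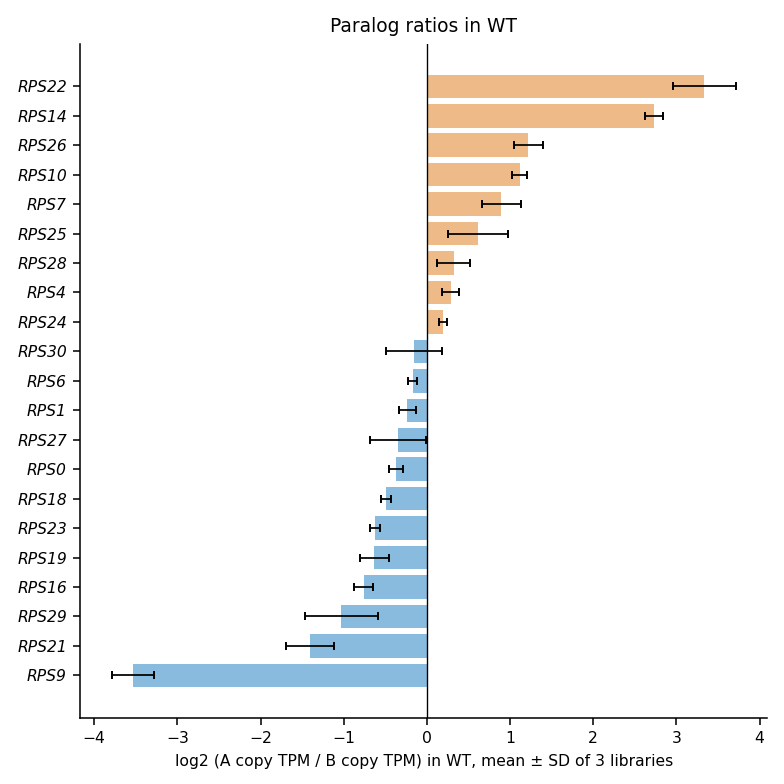
Log2 ratio of the A copy over the B copy of 21 of the 24 pairs in WT cells, in TPM, with bars for the mean and lines for the SD of 3 libraries (orange where A is higher, blue where B is). RPS22 and RPS14 stand far to the right, RPS9 far to the left, and RPS30 and RPS6 lie nearest 0.

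Depletion of Rap1 lowered the nascent RNA of nearly the whole family. Of the 56 genes, 53 were called lower in IAA-treated RAP1-AID cells than in their DMSO control, 0 were called higher, and 47 fell by more than 1 on the log2 scale (edgeR, largest adjusted p among the 53 of 0.0062). Of all protein-coding genes, 13.3% were called lower, 12.8% were called higher and 3.19% fell and 1.57% rose past 1. The median log2 fold change, log2(FC), of the 56 genes was -1.73, beside 0.01 over all genes. In all 53 genes the 3 IAA libraries lay below the 3 controls, which held for 20.4% of all genes. In 1 gene, RPS22B, they lay above (21.8% of all genes). Without RAP1-AID control replicate 2, 52 genes were lower and 1 was higher, and the median was -1.56. Large subunit genes changed likewise, with 73 of 81 lower, 2 higher and a median of -1.39.

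**Figure D2:**
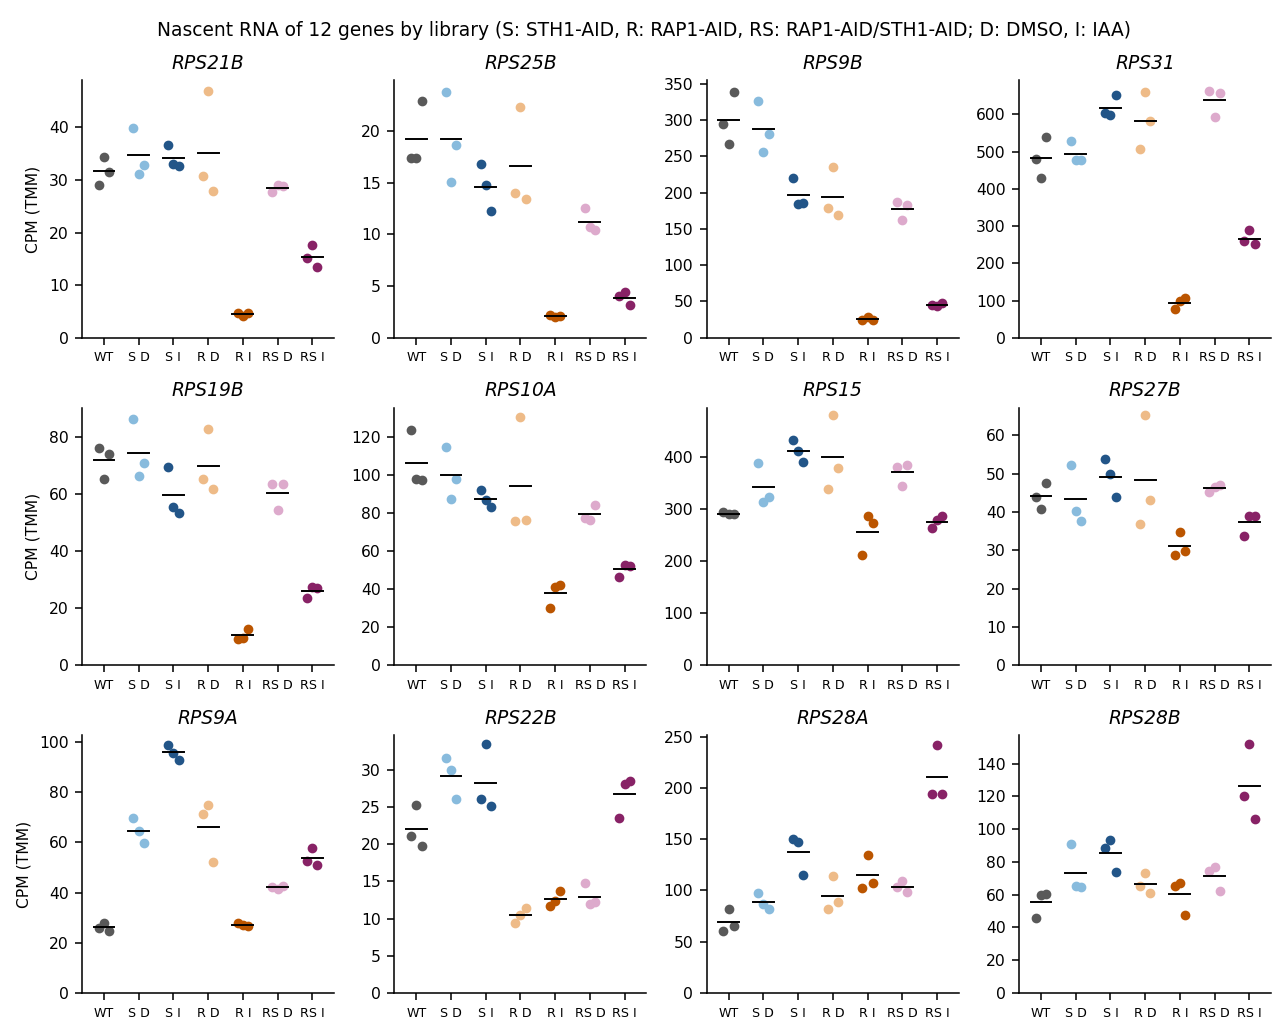
CPM of 12 genes, 1 panel each, in the 21 libraries by group, with 1 point per library, a black line for the mean of 3 and axes from 0 (S is STH1-AID, R is RAP1-AID, RS is RAP1-AID/STH1-AID, D is DMSO and I is IAA). RPS21B, RPS25B, RPS9B, RPS31 and RPS19B drop far in RAP1-AID cells with IAA, RPS15 and RPS27B drop less, and RPS22B, RPS28A and RPS28B are highest, or near it, after co-depletion.

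Head genes fell by a median of -1.98, with 20 of 22 called lower. RPS25B (YLR333C, chrXII:795573-795899), whose protein some viral internal ribosome entry sites need, had 14.0, 22.3 and 13.4 CPM in control replicates 1 to 3 and 2.17, 2.05 and 2.14 CPM after IAA. Its libraries were far apart, and its log2(FC) of -2.96 ± 0.22 (SE, adjusted p = 3.3e-09) shared the largest size in the family with that of RPS21B. RPS31 had 508, 660 and 581 CPM in the controls and 76.0, 97.7 and 107 CPM after IAA (log2(FC) -2.64 ± 0.12, adjusted p = 2.9e-12). RPS19B, for a head protein whose human counterpart is mutated in Diamond-Blackfan anaemia, went from 65.3, 82.6 and 61.7 CPM to 9.40, 9.59 and 12.9 CPM (log2(FC) -2.72 ± 0.15, adjusted p = 2.8e-11). RPS3, RPS12 and RPS20 fell by 2.26 ± 0.10, 2.24 ± 0.13 and 1.9 ± 0.14. RPS10A (YOR293W, chrXV:867098-867852, with an intron), a gene of the beak that the study singles out, had 76.0, 131 and 76.5 CPM in the controls and 30.1, 41.4 and 42.1 CPM after IAA. The groups did not overlap, and its log2(FC) was -1.32 ± 0.17 (adjusted p = 9.1e-06), while that of RPS10B was -1.96 ± 0.17.

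RPS28A and RPS28B were the head genes not called. RPS28A had 82.2, 114 and 88.7 CPM in the controls and 103, 134 and 108 CPM after IAA, higher with IAA in each numbered pair but overlapping as groups. Its log2(FC) was 0.27 ± 0.14 (adjusted p = 0.16), and with the replicate number as a block it passed at 0.28 (adjusted p = 0.05 as rounded). Without control replicate 2 it was 0.43 (adjusted p = 0.044). RPS28B, whose protein binds its own mRNA and leads to its decay, had 65.3, 73.5 and 61.2 CPM in the controls and 65.5, 67.4 and 47.8 CPM after IAA (log2(FC) -0.15 ± 0.16, adjusted p = 0.55). The Abf1 motifs of both are printed above, and neither had a Rap1 match. RPS15 fell least of the head genes that were called. RPS15 went from 338, 480 and 377 CPM to 211, 286 and 272 CPM (log2(FC) -0.64 ± 0.12, adjusted p = 0.00053). In this gene each IAA library lay below each control.

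Body and platform genes fell by a median of -1.68, with 33 of 34 called lower. RPS21B (YJL136C, chrX:156550-157273, with an intron) had 30.7, 46.8 and 27.9 CPM in the controls and 4.70, 4.14 and 4.71 CPM after IAA (log2(FC) -2.96 ± 0.17, adjusted p = 5.3e-11). RPS9B (YBR189W, chrII:604508-605508, with an intron) had 178, 235 and 169 CPM in the controls and 24.4, 28.4 and 24.8 CPM after IAA (log2(FC) -2.91 ± 0.13, adjusted p = 2.0e-12). RPS26B went from 73.6, 95.0 and 75.3 CPM to 11.5, 11.0 and 16.7 CPM (log2(FC) -2.64 ± 0.15, adjusted p = 3.7e-11). In these genes the lowest control was several times the highest IAA library. RPS9B and RPS26B held no match to the Rap1 motif searched, like RPS25B, RPS31 and RPS19B, which does not show that Rap1 is absent there. RPS2 and RPS13, which held one, fell by 2.01 ± 0.14 and 1.75 ± 0.14. At the other end, RPS27B, for a zinc-binding platform protein, had 36.9, 65.3 and 43.0 CPM in the controls and 28.9, 34.8 and 29.7 CPM after IAA (log2(FC) -0.64 ± 0.16, adjusted p = 0.0062). Its log2(FC) without control replicate 2 was -0.36 (adjusted p = 0.055), so its call rests on that library. RPS22B (YLR367W, chrXII:856442-857317, with an intron) had 9.36, 10.5 and 11.5 CPM in the controls and 11.7, 12.4 and 13.8 CPM after IAA, without overlap, but its log2(FC) of 0.27 ± 0.14 did not pass (adjusted p = 0.15).

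By what lay upstream, all 18 genes with a Rap1 match were called lower, with a median of -1.93, and so were 35 of the 38 genes without a match, with a median of -1.64. The 8 single-copy genes had a median of -1.95, the A copies -1.61 (23 of 24 lower) and the B copies -1.78 (22 of 24 lower). The medians were -1.70 for the 36 genes with an intron and -1.94 for the 20 without. These groups overlap in their members, and differences between the medians were not tested.

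**Figure D3:**
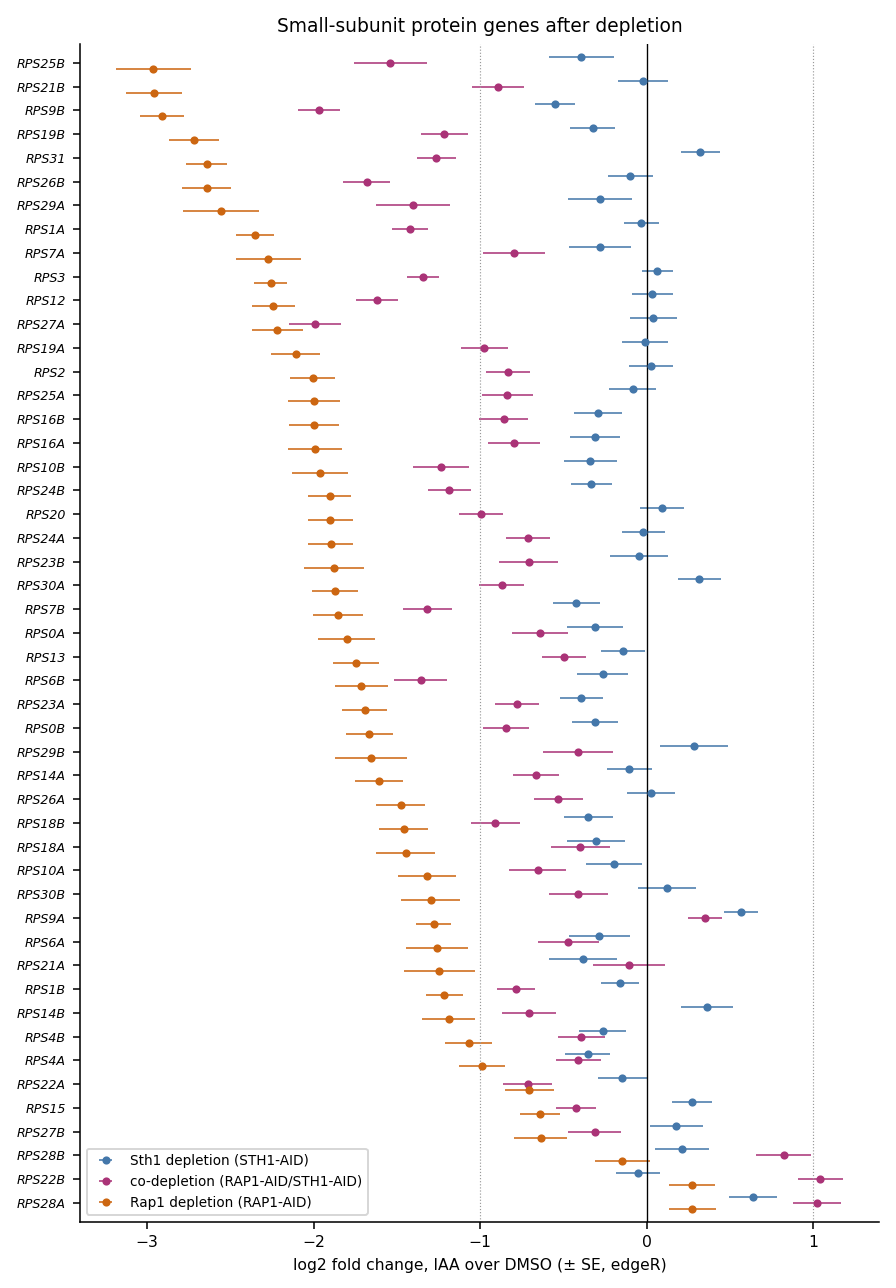
Log2(FC) of 49 of the 56 genes after IAA against DMSO in the RAP1-AID (orange), RAP1-AID/STH1-AID (purple) and STH1-AID (blue) strains, with lines for the standard error of edgeR's fit and genes ordered by their change in RAP1-AID cells. Orange points reach -2.96 and lie left of the purple ones for nearly every gene, and the blue ones lie close to 0.

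The copies of a pair did not fall equally when Rap1 was depleted. The log2 ratio of A over B counts moved without overlap between IAA and control libraries in 17 of 24 pairs, upwards in 10 and downwards in 7, with a median absolute change of 0.54. For scale, 42.2% of single genes had groups that did not overlap in this comparison. In 22 pairs both copies were lower, and in 6 pairs the copies' log2(FC) differed by more than 1. An exact permutation test of 3 against 3 libraries cannot go below p = 0.1, which is the two-sided p of each of the 17 pairs. RPS21 moved most: the log2 ratio of A over B was -2.19, -2.01 and -1.97 in the controls and -0.52, -0.03 and -0.49 after IAA, a change of 1.71 ± 0.17, as B fell by 2.96 and A by 1.24. In RPS9 the ratio went from -1.32, -1.65 and -1.70 to 0.19, -0.07 and 0.11, a change of 1.64 ± 0.14, which left the copies about level. RPS27 moved the other way, from -0.36, -0.80 and -0.14 to -2.19, -2.23 and -1.73, a change of -1.62 ± 0.25, with RPS27A down by 2.22. RPS26 went from 1.27, 1.49 and 1.25 to 2.39, 2.82 and 2.36 (change 1.19 ± 0.17). These 4 pairs all parted or met by over 2-fold, whereas the ratios of RPS16, RPS24 and RPS18 moved by -0.02, 0.02 and 0.04 and overlapped.

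The copy that was lower in WT fell more in 12 of the 24 pairs, and the copy that was higher fell more in the other 12. A Rap1 match lay upstream of 1 copy alone in 11 pairs, and in 7 of these the larger fall was in the copy with the match, among them RPS0A, RPS1A, RPS4B, RPS7A, RPS21B and RPS23B. In the other 4, RPS6A, RPS19A and RPS24A among them, it was not. Of the sites printed above, that of RPS1A goes with a fall of 2.35 ± 0.11 (RPS1B 1.21 ± 0.11). Over the 24 pairs the log2(FC) of A and of B had a Pearson r of 0.33, and over the 7 pairs with whole counts in every library, to which RSEM's sharing of reads did not apply, 0.49. Pairs are not independent replicates, and these values only describe them.

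**Figure D4:**
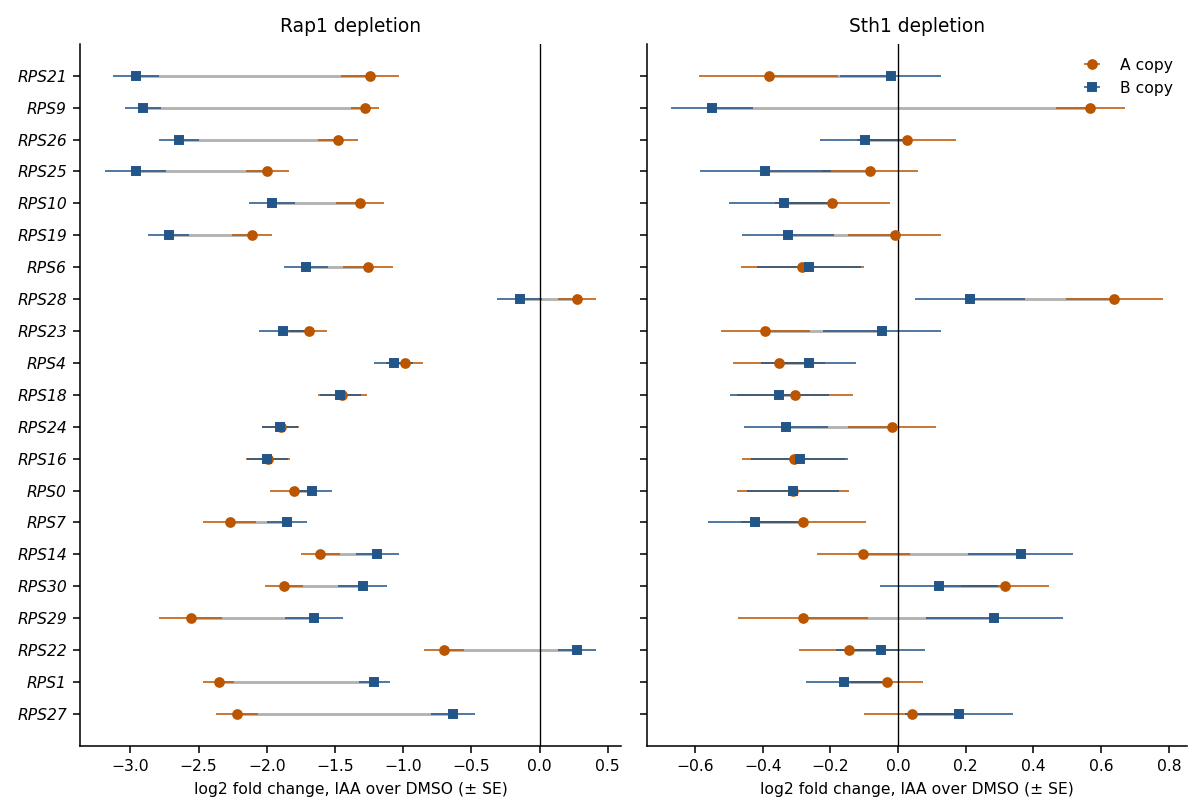
Log2(FC) of the A copy (orange circles) and the B copy (blue squares) of 21 of the 24 pairs after depletion of Rap1 (left) and of Sth1 (right), with lines for the standard error and a grey bar joining the copies; the horizontal scales of the panels differ. RPS21 and RPS9 are widest at the top of the left panel and RPS27 at its foot, and RPS9 is widest in the right panel.

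Relative to the other RNAs of each library, depletion of Sth1 changed few of these genes, and by little, while much of the genome moved. These values cannot show a fall shared by all RNAs. With spiked-in mRNA the study found lower expression of Rap1-regulated genes after Sth1 depletion. It names internal normalisation as the likely reason that its nascent RNA showed no such fall. In IAA-treated STH1-AID cells 9 genes were called lower and 6 higher, none past 1 on the log2 scale, out of 56. Over all protein-coding genes 40.9% were called lower and 35.9% higher, and 15.9% and 10.5% went past 1. The median log2(FC) was -0.14, beside -0.06 for all genes. It was -0.06 without control replicate 1 and -0.23 without control replicate 2, which relative to all genes is -0.0019 and -0.16. Scaling by library totals in place of TMM moved the median of all genes from -0.06 to -0.31 and that of the 56 genes with it. Then 34 of the 56 were lower and 2 higher, beside 2872 lower and 1399 higher of all 5742 genes tested. Relative to all genes the family stood at -0.08 with either scaling as long as all libraries were kept. Thus the direction of small changes here depends on the scaling. The counts also rest on single libraries: the genes lower were 1 without control replicate 1, 18 without control replicate 2, and 14, 3 and 4 without IAA replicates 1, 2 and 3, and the genes higher were 2 without control replicate 2 or 3 and 3 without IAA replicate 1 or 2. Large subunit genes had 17 lower and 11 higher of 81 (median -0.09).

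The largest falls were small, and of the genes named here for a fall only RPS9B kept its call whichever library was left out. RPS9B had 326, 256 and 281 CPM in the controls and 220, 184 and 186 CPM after IAA, without overlap (log2(FC) -0.55 ± 0.12, adjusted p = 0.00041). RPS7B, a body protein gene, had 111, 81.3 and 80.6 CPM in the controls and 73.9, 67.0 and 62.6 CPM after IAA (log2(FC) -0.42 ± 0.14, adjusted p = 0.011). RPS23A (decoding centre), RPS4A (body) and RPS18B (bridge to the large subunit) fell by 0.39 ± 0.13, 0.35 ± 0.14 and 0.35 ± 0.15 (0.24, 0.26 and 0.23 without control replicate 1, where they and RPS7B, at 0.26, were not called), and RPS0B, RPS19B and RPS24B were among the others called lower. With TMM factors none of the 18 genes with a Rap1 match was called in either direction. With library totals 13 of them were lower, where 2872 of all 5742 genes were. When only the STH1-AID libraries were fitted 3 of them were lower (2312 of 5639 genes), and with 1 library left out 0 to 5 were. RPS10A, 1 of the 18, had 115, 87.6 and 98.0 CPM in the controls and 92.5, 87.0 and 83.3 CPM after IAA (log2(FC) -0.19 ± 0.17, adjusted p = 0.30). It was -0.44 and called lower with library totals (adjusted p = 0.028), and lay between -0.29 and -0.09 with 1 library left out.

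RPS28A and RPS9A rose most, and kept their calls whichever library was left out. RPS28A had 97.2, 86.5 and 81.5 CPM in the controls and 150, 147 and 115 CPM after IAA (log2(FC) 0.64 ± 0.14, adjusted p = 0.00049). RPS9A had 69.7, 64.4 and 59.8 CPM in the controls and 98.8, 95.7 and 92.9 CPM after IAA (log2(FC) 0.57 ± 0.10, adjusted p = 4.5e-05). In both, each IAA library lay above each control. RPS14B rose by 0.36 ± 0.15 with overlapping libraries, and RPS31 and RPS30A rose by 0.32 ± 0.12 and 0.32 ± 0.13, but each of the 3 lost its call without at least 1 of the libraries (0.28, 0.29 and 0.25 without control replicate 2). With library totals they were at 0.11, 0.07 and 0.07 and none was called. RPS15, at 0.27 ± 0.12 (adjusted p = 0.045), was no longer called with the replicate block (adjusted p = 0.0504). Since RPS9B fell and RPS9A rose, the RPS9 ratio moved from -2.23, -1.99 and -2.23 to -1.15, -0.94 and -1.0, a change of 1.12 ± 0.10. It was the only pair to move by more than 1. The ratio moved without overlap in 11 of 24 pairs (77.8% of single genes did so in this comparison), with a median absolute change of 0.14. RPS29, for a zinc-binding head protein, went from -0.91, -0.59 and -0.49 to -1.31, -1.07 and -1.39 (change -0.59 ± 0.16). RPS14 went from 2.70, 2.71 and 2.62 to 2.24, 2.19 and 2.23 (change -0.46 ± 0.03). RPS28 and RPS21 changed by 0.41 ± 0.10 and -0.35 ± 0.10, each without overlap and each at the smallest p of 0.1.

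When Rap1 and Sth1 were depleted together, the family fell less, relative to the other RNAs of each library, than after depletion of Rap1 alone. In IAA-treated RAP1-AID/STH1-AID cells 47 genes were called lower and 4 higher against the DMSO control of that strain, with 17 lower and 2 higher past 1. The shares of all genes were 37.5% lower and 32.2% higher, and 5.73% and 7.07% past 1. With library totals 51 were lower and 3 higher, with 29 lower and 0 higher past 1. Of all 5742 genes, 2735 were then lower and 1220 higher, with 664 and 275 past 1. With TMM the member genes higher past 1 were 1 without control replicate 2 or IAA replicate 2 and 0 without control replicate 3. The median log2(FC) was -0.79, beside -0.05 for all genes, and large subunit genes had a median of -0.68 (63 of 81 lower, 6 higher). Fall sizes ran down to -1.99 ± 0.16 for RPS27A and -1.97 ± 0.13 for RPS9B, with 187, 163 and 182 CPM in the controls and 44.6, 44.0 and 47.4 CPM after IAA. RPS10A went from 77.6, 76.3 and 84.5 CPM to 46.3, 52.6 and 52.6 CPM (log2(FC) -0.65 ± 0.17, adjusted p = 0.0024). RPS18A, RPS21A, RPS27B and RPS29B were among the 5 genes not called.

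The 4 genes that rose were RPS22B, RPS28A, RPS28B and RPS9A. RPS28A had 103, 109 and 98.5 CPM in the controls and 195, 242 and 194 CPM after IAA (log2(FC) 1.02 ± 0.14, adjusted p = 4.4e-06). RPS28B had 74.5, 76.9 and 62.3 CPM in the controls and 120, 152 and 106 CPM after IAA (log2(FC) 0.82 ± 0.16, adjusted p = 0.0002). Thus the single protein of the set whose genes both rose was Rps28. RPS22B had 14.8, 11.9 and 12.2 CPM in the controls and 23.5, 28.1 and 28.5 CPM after IAA (log2(FC) 1.04 ± 0.14, adjusted p = 1.7e-06). RPS9A had 42.3, 41.5 and 42.5 CPM in the controls and 52.7, 57.7 and 50.9 CPM after IAA (log2(FC) 0.35 ± 0.10, adjusted p = 0.0050). In each of the 4 genes every IAA library lay above every control. Against WT, the controls of this strain lay lower for RPS22B (log2(FC) -0.77) and higher for RPS28A, RPS28B and RPS9A (0.58, 0.36 and 0.68). The rise of RPS22B thus starts from a control below WT, and its level after IAA was not tested against WT.

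The effect of IAA was compared between strains as a difference of log2(FC), each strain against its own controls. It was higher in RAP1-AID/STH1-AID than in RAP1-AID cells in 47 of the 56 genes and lower in 0, with a median difference of 0.93 and 20 genes past 1. Of all genes, 25.7% were higher and 29.3% lower, and 6.57% were higher by more than 1. Scaled by library totals, 33 genes were higher, 6 of them past 1, with a median difference of 0.60. Of all 5742 genes, 674 were then higher, 172 of them past 1, and 2590 lower, as the median of all genes went from -0.02 to -0.35. The median difference minus that of all genes was 0.95 with TMM and 0.96 with library totals. Without RAP1-AID control replicate 2, 40 genes passed and 11 went past 1. RPS21B differed most, at 2.07 ± 0.23 (adjusted p = 8.4e-07): it had fallen by 2.96 in RAP1-AID cells, and in RAP1-AID/STH1-AID cells it went from 27.8, 29.0 and 28.9 CPM to 15.2, 17.6 and 13.4 CPM. RPS9A followed at 1.63 ± 0.15 (adjusted p = 8.8e-08), from 71.3, 74.8 and 52.0 CPM to 27.8, 27.0 and 26.9 CPM in RAP1-AID cells, against the rise given above; the 3 IAA libraries of RAP1-AID cells lay among those of WT, at 25.9, 27.9 and 24.8 CPM. RPS19B, RPS7A and RPS25B differed by 1.51 ± 0.20, 1.48 ± 0.26 and 1.42 ± 0.31. RPS15, RPS22A and RPS27A were among the 9 genes that did not pass, at 0.21 ± 0.17, -0.01 ± 0.21 and 0.22 ± 0.22. The effect in RAP1-AID minus that in STH1-AID cells was lower in 53 genes and higher in 0 (31.4% and 37.6% of all genes), with a median of -1.56.

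Pair ratios moved without overlap in 20 of 24 pairs after co-depletion, upwards in 14 and downwards in 6, where 69.1% of single genes did not overlap. RPS9 changed by 2.32 ± 0.10, RPS22 by -1.76 ± 0.18 and RPS27 by -1.67 ± 0.08. In RPS9 the ratio was -2.14, -1.97 and -2.10 in the controls and 0.24, 0.39 and 0.10 after IAA, so that the copy that made 7.90% of the pair's nascent RNA in WT cells made 53.8% of it, both in TPM. In the controls of this strain it already made 19.0% of it. RPS21, the pair that moved most after Rap1 depletion, changed by 0.81 ± 0.17 here.

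**Figure D5:**
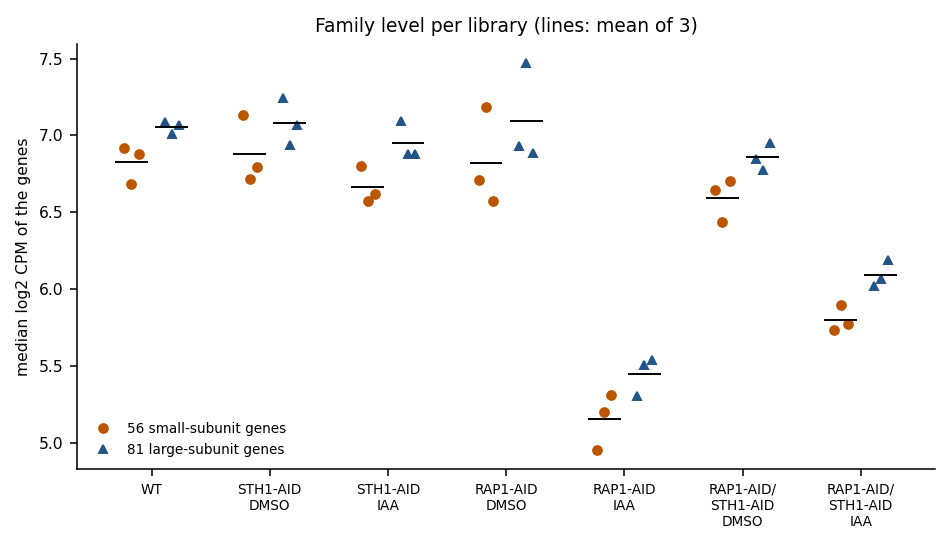
Median log2 CPM of the 56 small subunit genes (circles) and of the 81 large subunit genes (triangles), 1 point per library, with a line for the mean of 3; the axis does not start at 0. The small subunit genes averaged 6.82 in RAP1-AID controls and 5.16 after IAA, and 6.59 and 5.8 in RAP1-AID/STH1-AID cells.

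As a single value per library, the median log2 CPM of the 56 genes was 6.83 ± 0.13 (SD, n = 3) in WT cells. It was 6.82 ± 0.32 in RAP1-AID controls and 5.16 ± 0.18 after IAA, a difference of -1.66 without overlap (two-sided exact permutation p = 0.1, the smallest possible). In RAP1-AID/STH1-AID cells it went from 6.59 ± 0.14 to 5.8 ± 0.08 (difference -0.79, exact p = 0.1), and in STH1-AID cells from 6.88 ± 0.22 to 6.66 ± 0.12 (difference -0.22, exact p = 0.3). These tests do not pair the libraries: in STH1-AID cells all 3 differences between libraries of the same number were negative, from -0.33 to -0.14, and with 1 library left out the difference ran from -0.30 to -0.09. The median of large subunit genes moved by -1.65, -0.76 and -0.13. Small minus large changed by -0.02, -0.03 and -0.08 in the same order, with exact p-values of 0.7, 0.7 and 0.2.

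The DMSO controls were not identical to WT cells for this family, and the degron tag, osTIR and DMSO cannot be told apart in that comparison. Nor, for STH1-AID, can the MET17 locus, at 0.0452 to 0.0482 CPM in those controls and 45.7 to 63.8 CPM in WT. These comparisons share the WT libraries with each other and the control libraries with the results above. In STH1-AID controls 0 genes were lower and 3 higher than in WT (19.4% and 18.5% of all genes), in RAP1-AID controls 7 were lower and 3 higher (22.1% and 22.7%), and in RAP1-AID/STH1-AID controls 17 were lower and 4 higher (17% and 16.3%). Without RAP1-AID control replicate 2 the second of these became 15 lower and 2 higher (1044 and 1157 of all 5752 genes). Scaled by library totals it became 4 lower and 12 higher (633 and 2068 of all 5742 genes). Without replicate 1 of these controls 5 were higher (1194 of all 5756 genes). The 3 genes higher in STH1-AID controls became 1 without WT replicate 1 or 3 or control replicate 1 or 2 and 5 without WT replicate 2, and the 4 higher in RAP1-AID/STH1-AID controls became 2 without WT replicate 2 or control replicate 1. RPS9A was the extreme case, with 25.9, 27.9 and 24.8 CPM in WT. It had 71.3, 74.8 and 52.0 CPM in RAP1-AID controls (log2(FC) 1.33 ± 0.10, adjusted p = 7.3e-09), and it was also above WT in STH1-AID controls (1.3 ± 0.10) and in RAP1-AID/STH1-AID controls (0.68 ± 0.10). In all 3 control groups each library exceeded each WT library, so that the RPS9 ratio of A over B, -3.51 ± 0.26 in WT, was -1.56 ± 0.21 in RAP1-AID controls, -2.07 ± 0.09 in RAP1-AID/STH1-AID controls and -2.15 ± 0.14 in STH1-AID controls.

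RPS22B went the other way, from 21.1, 25.3 and 19.8 CPM in WT to 9.36, 10.5 and 11.5 CPM in RAP1-AID controls (log2(FC) -1.08 ± 0.14, adjusted p = 3.6e-06). It was also lower in RAP1-AID/STH1-AID controls (-0.77 ± 0.14) and higher in STH1-AID controls (0.40 ± 0.13). In RAP1-AID/STH1-AID controls RPS18A and RPS6B were lower than in WT by 0.98 ± 0.17 and 0.88 ± 0.16, and Rps6 is the subunit protein phosphorylated in response to TORC1. With the replicate block, RPS28A and RPS28B were also called higher in STH1-AID controls, by 0.37 (adjusted p = 0.0088) and 0.40 (adjusted p = 0.027).

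Other genes of the pathway were counted in the same fits. Of 11 regulators of ribosomal protein genes, 1 was lower and 1 higher after Rap1 depletion (9.1% each, against 13.3% and 12.8% of all genes): SFP1, an activator of ribosomal protein genes, at -0.46 ± 0.13, and HMO1, a high mobility group protein found at their promoters, at 0.38 ± 0.08. After Sth1 depletion 2 were lower and 5 higher (18.2% and 45.5%, against 40.9% and 35.9%), among them FHL1 at -0.47 ± 0.12 and IFH1, its coactivator, at 0.79 ± 0.14. After co-depletion 1 was lower and 6 were higher (9.1% and 54.5%, against 37.5% and 32.2%). RAP1, which carries the degron tag itself in that strain, is 1 of the 11 and 1 of these 6 (0.47 ± 0.10). Of 16 chaperones and assembly factors of the small subunit, 5 were lower and 1 higher after Rap1 depletion (31.2% and 6.2%). TSR1, a late assembly factor, fell by 1.18 ± 0.09, and NOB1, the nuclease that makes the 3′ end of 18S rRNA, fell by 0.92 ± 0.10. After Sth1 depletion 5 of the 16 were lower and 6 higher (31.2% and 37.5%). The largest falls there were those of TSR3 (2.51 ± 0.10), which modifies 18S rRNA, and TSR2 (1.31 ± 0.09), the chaperone of Rps26. After co-depletion 7 were lower and 5 higher (43.8% and 31.2%). With lists this short, shares near those of all genes are not read as a result about either list. The medians of both lists lay between -0.16 and 0.35 in the 3 comparisons.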

How the data were processed

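Per the study's methods and the submitters' processing notes, the authors trimmed strand-specific paired reads with cutadapt 1.9.1 to 51 bases and quantified genes of the Ensembl R64 annotation with STAR 2.5.2a and RSEM 1.3.0. The deposited table holds expected counts, not normalised between libraries, and TPM values that the authors scaled to gene length and library total. RSEM shares a read that aligns to both copies of a pair between them. Counts were rounded and analysed with edgeR 4.0.16 in R 4.3.3, with TMM scaling, the filter on low counts by group, 1 coefficient per group over all 21 libraries (14 residual degrees of freedom) and the quasi-likelihood test. Benjamini-Hochberg adjustment ran over the 5742 kept protein-coding genes, which include all 56 members, and a gene was called at an adjusted p below 0.05. Standard errors were derived from the log2 fold change and the F statistic. The steps were tested on simulated data.

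Family levels and the log2 ratio of A over B copies (expected counts, pseudocount of 0.5) were compared with exact two-sided permutation tests, for which 0.1 is the smallest p that 3 libraries against 3 allow. TPM values served for levels between genes and were not tested. Same-numbered IAA and DMSO libraries of a strain deviated together, with correlations of their deviations from the group means between 0.114 and 0.587 over the 9 pairs. The match was weak in places. RAP1-AID/STH1-AID IAA replicate 1 had 0.13 with DMSO replicate 1 and 0.124 with DMSO replicate 3. The numbers pair the libraries only in the replicate block and in differences between same-numbered libraries. The main edgeR fit and the permutation tests left the libraries unpaired. This pairing comes from the data, since the labels number biological replicates without saying what a number shares. Nothing in the sources used here says that replicates came from separate colonies. Motifs were sought in the 500 bases before each start codon of the R64 reference, and introns were read from its annotation. Full values are given for RPS10A, for the 6 largest and the 6 smallest falls after Rap1 depletion, for the single-copy genes, for up to 5 called members in each direction after Sth1 depletion, for the 5 largest differences between strains, for the 5 largest control changes, and for the pairs at the extremes of the A to B ratio and of its change. Members and lists were chosen with earlier results of these data known. Figures and permutation tests used Python 3.11.15, SciPy 1.17.1 and matplotlib 3.10.9. The alternatives were DESeq2 1.42.0 size factors and its Wald test, total library size, the replicate block, other filters, an adjusted p of at most 0.01, only the libraries compared, summed pairs, TPM or a pseudocount of 10 for ratios, and leaving out each library. Some member genes, which count in every total, are not reported here by name, in the text or the figures. The other data of the study were not analysed here.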

Additional observations from a re-analysis of the deposited data

Results flagged for a closer look

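The effect of IAA on small subunit genes differed between strains by a test of the difference itself (edgeR). The difference passed in 47 of 56 genes between RAP1-AID/STH1-AID and RAP1-AID cells, all higher in the former. Of all genes, 25.7% were higher and 29.3% lower. Between RAP1-AID and STH1-AID cells it passed in 53 of 56, all lower in the former (31.4% of all genes lower, 37.6% higher). Scaled by library totals, 33 genes passed between RAP1-AID/STH1-AID and RAP1-AID cells, all higher in the former, with 6 past 1 in place of 20. Of all 5742 genes, 674 were then higher and 2590 lower. Between RAP1-AID and STH1-AID cells 47 were lower and 1 higher, beside 968 lower and 2887 higher of all genes. Between RAP1-AID/STH1-AID and RAP1-AID cells a positive difference is a smaller fall or a rise in the former. The difference was 2.07 on the log2 scale for RPS21B, 1.63 for RPS9A, 1.51 for RPS19B, 1.48 for RPS7A and 1.42 for RPS25B. The member genes' share of counts was highest in RAP1-AID control replicate 2, whose part in these differences is given in the counts without it above.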

How the results depend on the processing

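Across the alternatives, 310 summary values kept their call or stayed within 1.5 times and 41 did not, and of the single-gene values 841 kept direction and call, 35 lost the call, 6 gained one and 8 changed sign. The replicate block, beyond the values given above for RPS28A, RPS28B and RPS15, let RPS28A pass in RAP1-AID minus STH1-AID (-0.35, adjusted p = 0.039), put 1 gene higher after Rap1 depletion and 5 higher in STH1-AID controls, and changed no other call of a member gene. After Sth1 depletion the genes lower were 5 with DESeq2 size factors, 5 with its Wald test, 34 with library totals and 1 at an adjusted p of 0.01, and the genes higher were 2 with library totals, 2 at 0.01 and 3 with pairs summed. Genes higher after co-depletion were 2 with pairs summed. Higher in STH1-AID controls were 9 with library totals (1531 of all 5742 genes), 5 with the Wald test (1129 of 5785) and 1 at 0.01 (734 of 5742). In RAP1-AID controls 4 were lower with library totals, 2 with pairs summed, and 12 were higher with library totals. In RAP1-AID/STH1-AID controls 11 were lower and 2 higher at 0.01. With library totals 1 gene was higher in RAP1-AID minus STH1-AID, and the family level changed by -0.47 after Sth1 depletion and by -1.0 after co-depletion.

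Leaving out 1 library at a time gave 1 to 18 genes lower and 2 to 8 higher after Sth1 depletion, 0 to 1 higher after Rap1 depletion and 0 to 1 higher in RAP1-AID minus STH1-AID. Against WT it gave 1 to 5 higher in STH1-AID controls, 5 to 15 lower and 2 to 5 higher in RAP1-AID controls, and 2 to 4 higher in RAP1-AID/STH1-AID controls. Summing pairs gives both copies 1 value and so turned the sign of the lesser copy: RPS22B was -0.66 after Rap1 depletion, -0.57 after co-depletion and 0.11 in RAP1-AID controls, RPS28B was 0.11 after Rap1 depletion, RPS9A was -0.28 after Sth1 depletion and -0.32 in RAP1-AID controls, and RPS14B was -0.0395 after Sth1 depletion. With 1 library left out, RPS28B lay between -0.23 and 0.0016 after Rap1 depletion, the latter without RAP1-AID IAA replicate 3. Ratios of copies that moved without overlap were 17 to 19 pairs after Rap1 depletion and 12 to 16 after Sth1 depletion with 1 library left out. Leaving out a library can only keep or raise such a count, so these ranges do not test it. Depth limits RPS29A most, with as few as 12 counts. With 3 libraries a group, no permutation test could pass, and read sharing limits the copies of pairs such as RPS4, RPS6 and RPS24. Nothing fixes the total RNA per cell.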

Other observations

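The evenness of the 32 proteins' nascent RNA differed between conditions. With both copies of each pair added, the SD over proteins of log2 TPM was 0.71 in WT cells, 0.75 and 0.89 in STH1-AID cells with DMSO and with IAA, 0.81 and 1.25 in RAP1-AID cells, and 0.90 and 1.13 in RAP1-AID/STH1-AID cells. Rps28, the highest protein in WT, was the protein of which neither gene was called after depletion of Rap1, and its sum was 4318 ± 426 TPM in RAP1-AID controls and 5223 ± 1217 TPM after IAA (SD, n = 3). The short Rps28 genes, whose TPM is uncertain, enter each of the SDs. These values are descriptions over proteins of the same libraries and were not tested.

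Of 2 proteins bound to the 40S subunit that the ribosomal protein names leave out, ASC1, a scaffold on the head, had log2(FC) of -0.68, -0.57 and -0.03 after depletion of Rap1, of Sth1 and of both, and the first and second of these passed the test. STM1, a factor that holds idle ribosomes, had 0.47, 0.24 and 0.93, of which the first and the last passed.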
